A study of Mus musculus with 6 samples.

Results

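These are 174 DNA sequences, of 1266 in the table of 16-base sequences, that carry a Gli binding site altered only in its middle. The most frequent base at each of the 16 positions of that table gave a reference sequence, and the members equal it at positions 1 to 3 and 8 to 16 and differ from it at 1 to 3 of positions 4 to 7. They comprise 12 sequences with 1 mismatch, 54 with 2 and 108 with 3, so every possible sequence of this kind was present. A recombinant mouse Gli, which the titles call Gli1, was incubated with libraries of double-stranded DNA, and protein-bound and unbound DNA were cut from a gel, amplified by PCR and sequenced. The groups used here are bound DNA (1 library) and unbound DNA (1 library) from the same reaction, which shared the protein, the gel (9%, 200 V, 30 min) and at least 8 PCR cycles. The labels list unmethylated libraries and libraries methylated with the CpG methyltransferase M.SssI for this reaction. They also list R6 libraries, which the table does not show as a window of its own. The table names no methylation state, so each count may hold DNA of either kind. The sequences are designed library DNA and are given with no genome position.

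Gli proteins are zinc finger transcription factors at the end of the Hedgehog signalling pathway, which patterns embryonic tissues and is overactive in some tumours. The site known for them reads GACCACCCA, which is identical to positions 1 to 9 of the reference. In the crystal structure of human GLI1 on DNA, the last fingers of the zinc finger array make most of the contacts with bases. In an assay of this kind, a sequence that binds more tightly has a higher share of its reads in the bound fraction, and the protein, salt and gel are the same for every sequence.

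The following sequences carry the main findings. Capitals mark the bases that differ from the reference, and a substitution gives the reference base, its position counted from 1 at the first listed base, and the new base. In the last line, capitals mark the 4 varied positions of the reference itself. The first 4 are the mildest and the most severe single changes, the next 7 show how changes combine, and the last 5 variants carry 3 mismatches.
A5C: gaccCcccaagatgaa
C7A: gaccacAcaagatgaa
C6G: gaccaGccaagatgaa
C4G: gacGacccaagatgaa
A5C C6G: gaccCGccaagatgaa
A5T C6G: gaccTGccaagatgaa
A5C C6A: gaccCAccaagatgaa
C4A C6A: gacAaAccaagatgaa
C4G C6G: gacGaGccaagatgaa
C4T C7G: gacTacGcaagatgaa
C4T C7A: gacTacAcaagatgaa
C4A A5C C6A: gacACAccaagatgaa
A5C C6T C7G: gaccCTGcaagatgaa
C4T A5G C7A: gacTGcAcaagatgaa
A5C C6T C7A: gaccCTAcaagatgaa
C4T C6T C7T: gacTaTTcaagatgaa
Reference: gacCACCcaagatgaa

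Binding is given as the ratio of bound to unbound reads after 0.5 was added to each count. A change is the natural log of a member's ratio minus that of the reference, and ± marks the counting standard error (SE) unless an SD is named. The reads were amplified by PCR and carry no molecular identifiers, so they are not separate molecules and these errors cover counting only. With 1 library per fraction there is no replicate check and no p-value. The table held 2101584 bound and 291875 unbound reads, of which the members had 129930 and 65727. Single members had 101 to 4319 bound and 34 to 1555 unbound reads, and their median counting SE was 0.078. The reference had 8450 bound and 236 unbound reads and a ratio of 35.7. The table also varies positions 1 to 4, 7 to 10, 10 to 13 and 13 to 16, so single changes at position 4 or 7 occur in a neighbouring library as well, and the reference in all 5. Total reads were 1931 to 2518 for single changes at position 4 and 2612 to 4634 at position 7, against 1173 to 2484 at position 5 and 1035 to 1577 at position 6. Whether pooling across libraries moved any of these ratios was not tested.

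Median binding was lower with each further mismatch, and how far it fell differed between the positions changed. The median change was -1.12 for members with 1 mismatch (SD 0.70, n = 12), -2.23 with 2 (SD 1.13, n = 54) and -3.84 with 3 (SD 0.91, n = 108). These medians correspond to binding 3.06-fold, 9.26-fold and 46.5-fold below the reference. Of the 174 members, 172 were lower than the reference by more than 2 counting SE and none was higher. Over all 1263 sequences other than the reference with at least 10 reads in each fraction, members included, 62.9% were lower and 9.42% higher. Their median change was -1.06. At least 2-fold lower were 166 members, beside 52.4% of the table, and at least 10-fold lower were 120, beside 37.1%. The 81 sequences that differ at all 4 positions lie just outside the set, with a median change of -4.29 and an SD of 0.25.

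C4 and C6 were the bases whose single replacement cost most. C4G had 1930 bound and 467 unbound reads, a ratio of 4.13, and a change of -2.16 ± 0.084. C4A had 1660 and 271 reads, a ratio of 6.12 and a change of -1.77 ± 0.093. C4T was the mildest at this position, with 2306 bound and 212 unbound reads, a ratio of 10.9 and a change of -1.19 ± 0.098. The order G, A, T at position 4 thus ran from most to least severe, with each step larger than 2 counting SE. C6G had 1315 bound and 262 unbound reads, a ratio of 5.01 and a change of -1.96 ± 0.095. C6T had 901 and 134 reads, a ratio of 6.70 and a change of -1.67 ± 0.11. C6A had 976 and 99 reads, a ratio of 9.81 and a change of -1.29 ± 0.12. At both positions a G was the least tolerated base in the otherwise unchanged site.

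At A5 and at C7, 1 replacement each lay within 2 counting SE of the reference. A5C had 1139 bound and 34 unbound reads, a ratio of 33.0 and a change of -0.079 ± 0.19. This is within counting error of the reference, with the fewest unbound reads of any member. A5G had 2384 and 100 reads, a ratio of 23.7 and a change of -0.41 ± 0.12, and A5T had 1164 and 54 reads, a ratio of 21.4 and a change of -0.51 ± 0.15. No change at position 5 alone lowered binding 2-fold. C7A had 2642 bound and 86 unbound reads, a ratio of 30.5 and a change of -0.16 ± 0.13, again within 2 counting SE of the reference. C7G and C7T were lower, with 4319 bound and 315 unbound reads (ratio 13.7, change -0.96 ± 0.088) and 2420 and 192 reads (ratio 12.6, change -1.04 ± 0.10). Position 7 thus tolerated A but neither G nor T.

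Among members with 2 mismatches, the position sets differed widely in binding. Loss of both C4 and C6 left the least binding, with a median change of -4.09 over 9 members and ratios of 0.407 (C4G C6G, 283 bound and 696 unbound reads) to 1.28 (C4T C6A, 277 and 216 reads). All 9 lay within the range of the sequences that differ at all 4 positions. Loss of C4 and C7 gave a median of -3.44, but its members spread widely. C4T C7A kept a ratio of 8.85 (1057 and 119 reads), while C4G C7G had 0.588 (477 and 811 reads). Loss of C6 and C7 gave a median of -2.88, from 1.12 (C6T C7T, 300 and 269 reads) to 5.44 (C6T C7A, 808 and 148 reads).

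Sets in which A5 was one of the changed bases had the highest medians. Changes at positions 5 and 6 had a median of -1.35, with A5C C6A highest at 18.6 (1165 bound and 62 unbound reads) and A5G C6G lowest at 2.29 (1486 and 648 reads). Changes at 5 and 7 had a median of -1.73, with A5C C7A highest at 21.6 (1132 and 52 reads) and A5G C7T lowest at 4.28 (1251 and 292 reads). Changes at 4 and 5 had a median of -1.74, from 1.94 for C4G A5G (1194 and 616 reads) to 9.80 for C4T A5C (984 and 100 reads). A5C C7A, which lacks the reference base at 2 of the 4 positions, thus had a higher ratio than any single replacement of C4 or C6.

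The cost of 2 changes often differed from the sum of their separate costs. A deviation is the change of a member with 2 mismatches minus the summed changes of its single parts, with the counting SE of all 4 sequences involved. Of 54 members, 24 were below the sum by more than 2 counting SE, beside 21.5% of 270 such sequences in the table's 5 windows, and 7 were above it, beside 10%. Their median deviation was -0.28, against 0.010 over the 270. The share above the sum was close to that of the table, which includes these members.

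Deviations below the sum gathered where C4 was lost together with C6 or C7. For changes at 4 and 6, 8 of 9 were below the sum, with a median of -0.84. For changes at 4 and 7, 6 of 9 were below it, with a median of -0.97, and all 6 had G or T at position 7. C4T C7G had a change of -3.44 where its parts sum to -2.15, a deviation of -1.29 ± 0.13. The other deviations largest against their error were -1.25 ± 0.13 for C4A C7G, -0.99 ± 0.12 for C4G C7G and -1.21 ± 0.15 for C4T C6G, which had 187 bound and 412 unbound reads. With A at position 7 the deviation was smaller, from -0.28 ± 0.15 for C4G C7A, named after its value was seen, to -0.048 ± 0.18 for C4T C7A, all within 2 counting SE of 0. With a floor subtracted from every ratio (the median of the sequences that differ at all 4 positions), the medians were -1.97 at 4 and 6 and -1.63 at 4 and 7. At 4 and 6, 3 of the 9 members, C4T C6G among them, were at or under the floor and gave no value. The same setting gave -2.62 for C4G C7G and -2.45 for C4A C7G, so the size of these deviations depends on it. A subtracted floor lowers the log of the weakest ratio most, so it could not have reversed a deviation below the sum.

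Changes at positions 5 and 6 went the other way, depending on the new base at position 5. The median deviation was 0.70 over 9 members, with 5 above the sum and 1 below it. A5T C6G stood 1.12 ± 0.18 above the sum of its parts and A5T C6A 0.82 ± 0.22. A5T C6T lay within 2 counting SE of its sum, at 0.13 ± 0.20. The 3 members with C at position 5 deviated by 0.72 ± 0.25 (C6A), 0.72 ± 0.24 (C6T) and 0.70 ± 0.21 (C6G). With G at position 5 the deviations were negative, at -0.34 ± 0.18 (C6A), -0.17 ± 0.17 (C6T) and -0.37 ± 0.15 (C6G). A5C rests on 34 unbound reads. With at least 50 reads required in each fraction it drops out with its 3 sums, and the median of the remaining changes at 5 and 6 was -0.022. Outside this set, the other members above their sums, named after their values were seen, were C4A A5T and C6G C7G, by 0.54 ± 0.19 and 0.31 ± 0.12.

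In 4 of these members the second mismatch raised binding over the first, a comparison that uses neither the reference nor A5C itself. C6G alone had a ratio of 5.01, and adding A5C gave 9.37 (1991 bound and 212 unbound reads), higher by 0.63 ± 0.099. Adding A5T to C6G gave 9.23 (1739 and 188 reads), higher by 0.61 ± 0.10. A5C C6T had 12.8 (1040 and 81 reads) against 6.70 for C6T, higher by 0.64 ± 0.15, and A5C C6A had 18.6 against 9.81 for C6A, higher by 0.64 ± 0.17. A C at position 5 thus raised binding about equally, 1.87-fold to 1.90-fold, with each of the 3 replacements of C6. A5G did the opposite, and A5G C6A, A5G C6T and A5G C6G were lower than their C6 singles by 0.75, 0.58 and 0.78. A5T C6T was also lower than C6T, by 0.38 ± 0.12, and A5T C6A was within 2 counting SE of C6A (0.30 ± 0.16). Over all 108 comparisons of a 2-mismatch member with one of its singles, these 4 were the ones higher by more than 2 counting SE and 93 were lower, with a median of -1.58. Over all 5 windows, 9.07% of 540 such comparisons were higher and 48.3% lower, with a median of -0.30.

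Replacing A5 raised binding in many altered sites, most often where the new base was C and C6 was replaced too. Each replacement of A5 was compared with the same sequence keeping A5, in every context of the other 3 positions. In contexts with 1 to 3 other mismatches, the replacement was higher by more than 2 counting SE in 59 of 189 comparisons and lower in 37. With only 1 other mismatch it was higher in 4 of 27 and lower in 16, with a median of -0.38. With C6 replaced, A5C was higher in 36 of 48 contexts and lower in none, with a median difference of 0.44. Across replacements at any of the 4 positions in altered contexts, 8.33% of 756 were higher, 71.8% were lower and the median was -0.84. With C6 kept and another position altered, A5C was higher in 4 of 15 contexts and lower in 4, with a median of -0.0065. Among members alone, without the sequences that differ at all 4 positions, A5C was higher in 20 of 21 contexts that lack C6. The exception was C4G A5C C6T against C4G C6T, at 0.095 ± 0.11.

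The size of this rise varied with the rest of the core. The largest was in C4A A5C C6A, which had 607 bound and 185 unbound reads and a ratio of 3.27, against 143 and 239 reads and 0.599 for C4A C6A, a 5.47-fold rise (1.70 ± 0.14). A5C C6T C7G had 1716 and 236 reads and a ratio of 7.26, against 834 and 416 reads and 2.0 for C6T C7G, a 3.62-fold rise (1.29 ± 0.092). These members were singled out after their values were seen. A5G behaved differently where C6 was replaced, being higher in 4 of 48 contexts and lower in 16, and A5T was higher in 12 and lower in 4. The lowest difference was that of A5G C7T, with both C4 and C6 kept, which had a ratio of 4.28 against 12.6 for C7T (-1.08 ± 0.099).

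C4 had no such exception. Its replacement lowered binding by more than 2 counting SE in 189 of 189 altered contexts, with a median difference of -1.77. The fall was deepest where C6 or C7 was the other mismatch, at medians of -2.40 and -2.48 over 9 contexts each. Replacement of C6 lowered binding in 184 of 189 altered contexts and raised it in 1, with a median of -1.30, and the median was -2.32 where C4 was the other mismatch and -1.26 where A5 was. Replacement of C7 lowered it in 133 of 189 and raised it in 3, with a median of -0.56. That median pools unlike contexts. It was -1.33 with 1 other mismatch, where 23 of 27 were lower, against -0.96 in the otherwise unchanged site. With 3 other mismatches, where the replacement gives a fully altered sequence, it was -0.43. The order of positions by the cost of replacement in altered contexts was thus C4, C6, C7 and A5. With 1 other mismatch the order was the same, at medians of -2.34, -1.92, -1.33 and -0.38. C4 and C6 alone in the intact site overlapped in their values.

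The best tolerated new base was most constant at position 7, where G and T did not keep a fixed order. Over the 37 contexts in which the 3 replacements can be compared among singles and members, A was the highest at position 7 in 36, while T was the lowest in 24 and G in 13. At position 5, C was the highest in 28 and G the lowest in 26. At position 4, T was the highest in 21 and G the lowest in 22. At position 6, A was the highest in 21 and G the lowest in 17, so the order there was the least fixed. These counts ignore counting error, and contexts share sequences, so they describe the set and are not independent trials.

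Members with 3 mismatches differed by the single reference base they kept. Those keeping C4 had the highest median, a change of -2.67 (SD 0.75, n = 27) and ratios of 0.607 (A5G C6A C7G, 413 bound and 681 unbound reads) to 8.26 (A5C C6T C7A, 813 and 98 reads). Those keeping C6 had a median of -3.49 (SD 0.92), from 0.522 (C4G A5G C7T, 394 and 755 reads) to 8.70 (C4T A5G C7A, 1848 and 212 reads). Those keeping C7 had a median of -3.92 (SD 0.53), from 0.434 (C4T A5T C6T, 129 and 298 reads) to 3.27 for C4A A5C C6A. Those keeping A5 had the lowest median, -4.42, and the narrowest spread (SD 0.15). They ran from 0.291 for C4T C6T C7T (101 and 348 reads) to 0.575 for C4G C6T C7A (201 and 350 reads).

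Members that kept only A5 lay among the sequences that keep none of the 4 bases. Of the 27 members keeping only A5, 26 lay within the range of the 81 sequences that differ at all 4 positions, 1 lay below that range, and 21 were at or below its median. Set against the same sequence with A5 also replaced, the fully altered sequence was higher by more than 2 counting SE in 23 of 81 comparisons and lower in 3, with a median of 0.099. By comparison, 6 of the 27 members keeping C4 lay within the range of the fully altered sequences, as did 17 of those keeping C6 and 24 of those keeping C7. Of the 10 members with 3 mismatches and the highest ratios, 9 had A at position 7 and 6 had C at position 5, while none kept A5.

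A sum of 1 term per base and position gave 87.4% of the variance of the log ratio over the members and the reference. Its residual SD was 0.45, or 5.61 times the mean counting SE of 0.080. Terms for 1 pair of positions at a time, tried after the data were seen, added 4.28 percentage points for positions 6 and 7, 2.08 for 5 and 6, and 0.67 to 1.45 for the other 4. These terms draw on members with 3 mismatches as well as those with 2. Of the 108 with 3 mismatches, 73 lay within the range of the fully altered sequences. With terms for adjacent positions the share was 94.7% and the residual SD 0.32, still 4.0 times the counting SE. With all 6 pairs it was 96.7%, at 3.52 times. At positions 6 and 7, 4 of 9 members lay below the sum of their parts and 1 above it, with a median of -0.25. C6A C7G (477 bound and 383 unbound reads) lay 1.11 ± 0.15 below its sum. C6G C7G (1549 and 591 reads) was the one above, by 2.56 counting SE, and would not pass a threshold of 3. Both were named after their values were seen.

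CpG dinucleotides, the targets of M.SssI, form in members that gain a G after a C, the fixed C at position 3 included. With 1 mismatch the 3 members with a CpG had a median change of -0.96 and the 9 without had -1.19. With 2 mismatches the medians were -2.48 for 20 members with a CpG and -2.11 for 34 without. With 3 mismatches they were -3.89 for 47 with a CpG and -3.57 for 61 without. The ranges overlapped at every mismatch number. Every member with a CpG has gained a G, and the median change was also lower with more G gained over all members. With 2 mismatches it was -1.86, -2.33 and -2.83 for 0, 1 and 2 G gained, while median total reads were 946, 1238 and 1972. With 3 mismatches it was -3.33, -3.87, -4.04 and -4.15 for 0 to 3 G gained, while median total reads were 524, 781, 1265 and 2362. The part of G content in the CpG gap was not tested. To hold position and context fixed, G was also compared with T at the same position in otherwise equal sequences. At position 6, G minus T was -0.24 with C before it (7 contexts) and 0.036 without (30 contexts), and at position 5 it was -0.34 (16 contexts) and -0.15 (21 contexts). At position 7 it was 0.021 with C before it (16 contexts) and 0.088 without (21 contexts). The base before the G is itself part of the site, so the CpG and the altered context cannot be told apart here, and a part of methylation in these values was not tested.

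The neighbouring windows give a scale for the core. With 1 mismatch, the median change was -1.12 at positions 4 to 7, -1.02 at positions 1 to 4 and -0.28 at positions 7 to 10, with 12 sequences each. With 2 mismatches it was -2.23, -2.37 and -0.52 (54 each), and with 3 it was -3.84, -3.10 and -1.43 (108 each). The core and the start of the site thus had close medians with 1 or 2 mismatches, and the core lay lower with 3, where its lowest ratio was 0.291 against 0.758 and 1.51. Second mismatches that raised binding by more than 2 counting SE numbered 4 of 108 in the core, 0 of 108 at positions 1 to 4 and 10 of 108 at positions 7 to 10. The windows share the single changes at positions 4 and 7 and the reference, and no test beyond counting error was possible between them.

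Altered sequences can also resemble the site in another register. Counted from position 2 instead of 1, A5C C6A matched the 9 bases GACCACCCA at 6 positions, more than any other member in any other register or on the opposite strand. Among the other members with changes at 5 and 6, A5C C6G, A5C C6T, A5T C6A and A5G C6A matched at 5 from position 2, and A5T C6G, A5T C6T, A5G C6G and A5G C6T at 4. C6A alone also matched at 5, and the reference matched at 4 in its best other register. Set against the C6 single, A5C C6A matched at 6 against 5, and A5C C6G and A5C C6T at 5 against 4. Members with T or G at position 5 matched at as many as their C6 singles. Of these, A5T C6G was above its single, while A5G C6A (4.62 against 9.81 for C6A) and A5T C6T (4.56 against 6.70 for C6T) were lower. Binding in another register was not tested. A match is a description of the letters and not evidence of binding in that register.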

How the data were processed

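Bound and unbound DNA of 1 gel reaction were counted per sequence. The authors deposited whole-number read counts for each of 1266 sequences of 16 bases, per the file headers, with the ratio of the bound to the unbound count, which was not scaled for depth. The software that counted reads is not given in the sources used here. The table names no reaction. It was taken as that of the R1-R5 titles because it holds 5 varied windows. The other tables of the series do not vary positions 4 to 7 and were not used.

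Ratios were recomputed with 0.5 added to each count, for sequences with at least 10 reads in each fraction, which left out 2 sequences, neither a member. The counting SE was the square root of the summed reciprocal counts, and a call was a difference of more than 2 counting SE. No p-value was computed, since each fraction had 1 library. The sum of base terms was fitted by unweighted least squares to the natural log ratio.

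The members and lists were chosen with earlier results of these data known. Named sequences were the reference, all single changes, the highest and lowest member of each position set with 2 or 3 mismatches, and the 4 largest deviations in each direction in units of their error. Any other sequence was named after its values were seen. The calculation was tested on simulated data with more reads per sequence than the real data and no floor. That test checked the arithmetic and not the error at the real depth. Alternatives covered the pseudocount, count minimum, deposited ratio, depth scaling, reference, thresholds, a subtracted floor and the model's terms. Scripts ran in Python 3.11.15 with pandas 2.3.3 and numpy 2.4.6.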

Additional observations from a re-analysis of the deposited data

How the results depend on the processing

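The median changes by mismatch number, the counts of members below the reference and the CpG differences stayed close to the values given. They kept their direction under every alternative tried for them, but several of these alternatives could not move them. Depth scaling multiplies every ratio by the same factor, which cancels in a change. Dropping the count minimum kept the same members. The deposited ratio repeats the setting without a pseudocount. The strongest sequence of positions 4 to 7 was the reference itself, so that alternative repeated the main comparison. The pseudocount, the minimum of 50 reads and the thresholds could each move at least some of these results. With a minimum of 50 reads, A5C was lost, the members above the sum of their parts numbered 4 in place of 7, and the median deviation at positions 5 and 6 was -0.022 in place of 0.70. With a threshold of 3 counting SE, 4 were above the sum. Taking positions 5 and 6 alone, whose singles occur in no other library, the median deviation was 0.70 in place of -0.28 over all pairs, and 1 member was below the sum. That restates the values given above for these positions, and the sums still use the reference, which occurs in every library. With the median ratio of the fully altered sequences, 0.490, subtracted as a floor, the medians were -1.97 at positions 4 and 6 and -1.63 at 4 and 7. At or under the floor, 30 members gave no value, among them 3 of the 9 with changes at 4 and 6. The additive share was 94.7% with terms for adjacent positions and 96.7% with all 6 pairs. Without the fully altered sequences, A5C was higher in 20 contexts lacking C6, since fewer contexts remain. No paired analysis was possible because each fraction of this reaction had 1 library, and for the same reason no replicate could be left out. Depth limits the single changes at position 5 most, with 34 to 100 unbound reads.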
